A study of Mus musculus with 11 samples.

Results

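Immediate-early genes and genes induced by heat or by tissue dissociation were followed in cells isolated from the brain vessels of CADASIL model mice and of their controls. The group holds 33 genes, which were taken by symbol from the 32287 features of the count tables, and all 33 were found. Single-cell RNA sequencing had been done on 11 mice, with 1 droplet library per mouse. All mice were untreated and carried human NOTCH3 as a transgene, which bore the CADASIL variant R182C in the 6 R182C-TgN3 mice and was wild type in the 5 WT-TgN3 mice. The titles name all R182C-TgN3 mice Tg350 and all WT-TgN3 mice Tg100. The variant therefore cannot be told apart from any other difference between these transgenic mice. Microvascular fragments of the brain had been captured with anti-CD31 beads, which bind endothelial cells, and digested a second time into single cells before loading. The labelled batch 20210225 held 2 R182C-TgN3 and 2 WT-TgN3 mice of 9 months, and batch 20210420 held 1 R182C-TgN3 mouse of 9 months. Batch 20210616 held 2 mice of each genotype at 6 months, and batch 20210618 held 1 mouse of each genotype at 6 months. Both sexes were present, with 7 females and 4 males, and both mice of batch 20210618 were female. Mice are named here by genotype, age and the replicate number of their label, so that R182C-TgN3 9m-1 is the first 9-month R182C-TgN3 mouse. The labels name each library as a separate mouse of its group.

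Immediate-early genes are transcribed within minutes of a stimulus because the factors that switch them on are already present in the resting cell. Serum response factor, cAMP-responsive factors and NF-kB act on many of their promoters, and heat shock factor acts on the chaperone genes. Enzymatic digestion of tissue is a known inducer of both sets, so in dissociated brain vessels their transcripts can reflect the isolation as well as the living tissue. Among the 33 genes are the AP-1 subunits Fos, Fosb, Jun, Junb and Jund with their relative Atf3, the zinc finger factors Egr1, Egr2 and Egr3, the nuclear receptor Nr4a1, and the Krüppel-like factors Klf2, Klf4 and Klf6. Others code for proteins that limit the response, such as the phosphatase Dusp1 and the mRNA-destabilizing protein Zfp36, or for chaperones such as Hspa1a.

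The promoters of the paired chaperone genes Hspa1a and Hspa1b are shown because heat shock genes carry several of the results given further on. The genes lie next to each other on chromosome 17 of GRCm38 (mm10), Hspa1a at chr17:34969190-34972156 and Hspa1b at chr17:34956436-34959238, both on the minus strand. The bases before the RefSeq start sites (GRCm38.p6, minus strand, 5′ to 3′, from chr17:34972157-34972306 and chr17:34959239-34959388) are printed with the heat shock element core GAANNTTC in capitals.
Hspa1a: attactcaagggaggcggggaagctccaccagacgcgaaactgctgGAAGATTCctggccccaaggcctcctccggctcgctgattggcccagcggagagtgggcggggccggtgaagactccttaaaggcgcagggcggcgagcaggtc
Hspa1b: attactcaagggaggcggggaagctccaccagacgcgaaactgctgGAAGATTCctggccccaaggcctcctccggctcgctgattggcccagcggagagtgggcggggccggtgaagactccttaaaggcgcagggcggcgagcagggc
These windows were identical at 149 of 150 bases. The transcribed parts of such close copies can also share reads, so the split of counts between Hspa1a and Hspa1b is uncertain. RefSeq promoter windows of 300 bases, from 250 bases before the start to 50 after it, were listed for 28 of the 33 genes. The core GAANNTTC, which reads the same on both strands, was found in 5 of the 28, namely Dnaja1, Hspa1a, Hspa1b, Hsph1 and Jun, and in 7.95% of all 27025 listed promoters. The cAMP response element TGACGTCA was found in Btg2 and Dusp1 and in 1.88% of all promoters, and the CArG box bound by serum response factor in Zfp36 and in 1.57% of all promoters. The AP-1 site TGANTCA, searched on both strands, was in none of the 28 windows and in 7.93% of all promoters. These matches describe the letters in the windows and not binding.

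The libraries held 66658 barcodes and between 17550806 and 64215050 unique molecular identifiers (UMIs) each, and 58346 cells were kept. Cells were assigned to classes by the number of marker genes detected, and no member of the 33 genes served as a marker. The gate gave 14267 capillary endothelial cells (EC), 6009 arterial EC, 8402 venous EC, 1414 fenestrated EC, 2015 smooth muscle cells (SMC), 485 pericytes, 13203 microglia and 218 macrophages. The summed level of the 10 pan-endothelial markers lay between 23585 and 27157 CPM in capillary EC and between 86.1 and 275 CPM in microglia, where CPM (counts per 1000000) scales UMIs to the UMI total of that class in that mouse. The 10 microglia markers summed to between 12112 and 16308 CPM in microglia and between 280 and 839 CPM in capillary EC. Of the 7 macrophage markers none was at 0 in macrophages, whose microglia markers still summed to between 2120 and 3515 CPM. Mice with at least 20 cells of a class entered its comparisons, which left 10 mice for pericytes (WT-TgN3 9m-2 fell short) and 6 for macrophages. All 55 pairs of libraries shared cell barcodes, from 3 to 167 per pair, with the most between R182C-TgN3 6m-1 and R182C-TgN3 6m-2. Sharing also crossed genotype and batch: WT-TgN3 6m-3, of another batch, shared 133 with R182C-TgN3 6m-1 and 134 with R182C-TgN3 6m-2. With R182C-TgN3 6m-3, of its own batch, WT-TgN3 6m-3 shared 85. Many cells with shared barcodes were venous EC, such as 89 of 464 in R182C-TgN3 6m-2 and 82 of 694 in WT-TgN3 6m-3. The counts of calls were also made without cells whose barcodes were shared.

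The 33 genes together took the largest share of UMIs in microglia, SMC and macrophages and the smallest in pericytes. They made up 3.88% ± 0.76 of UMIs in microglia (SD, n = 11), 3.31% ± 0.74 in SMC (n = 11) and 3.13% ± 1.01 in macrophages (n = 6). Among EC the share was 2.49% ± 0.46 in venous, 2.18% ± 0.49 in arterial, 2.01% ± 0.40 in fenestrated and 1.82% ± 0.43 in capillary EC (n = 11 each). In pericytes it was 0.544% ± 0.395 (n = 10). The ranges of microglia (2.81 to 5.18%) and SMC (2.76 to 5.07%) overlapped, and that of pericytes (0.228 to 1.37%) overlapped only with the lowest values of capillary EC (1.21%) and fenestrated EC (1.36%). In pericytes the values of R182C-TgN3 9m-1 (1.15%) and WT-TgN3 9m-1 (1.37%) stood above those of the other 8 mice, which lay at or below 0.526%. SMC differed from the other classes in mitochondrial UMIs as well, with a mean of 6.77 to 7.77% per mouse against 3.21 to 3.83% in capillary EC and 1.63 to 2.96% in microglia, and the part of this in the result was not tested.

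**Figure D1:**
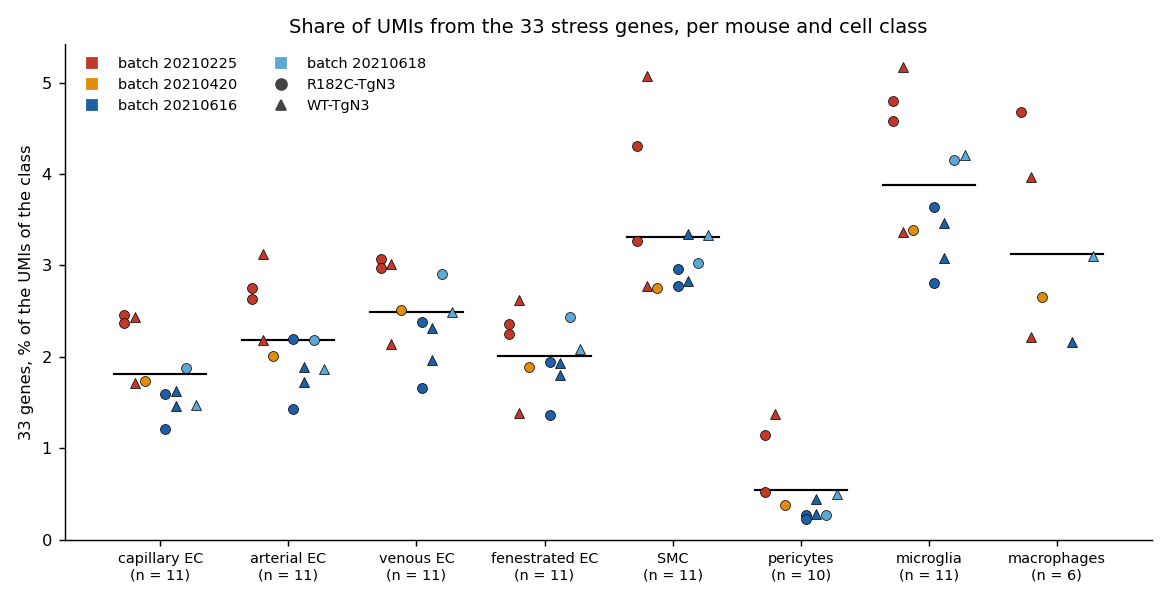
Share of each class's UMIs that came from the 33 genes (y axis, percent), for each mouse (points) in 8 cell classes (x axis), coloured by labelled batch and shaped by genotype, with the mean over mice as a line. Pericytes lie lowest, between 0.228 and 1.37%, and microglia and SMC highest, and the points of batch 20210225 reach the highest values in each class.

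Cell classes were compared within mice, with edgeR's quasi-likelihood test on UMIs summed per mouse, mouse as a block, and p-values adjusted over all genes by the Benjamini-Hochberg method (threshold 0.05). In a bulk sum over cells, fewer expressing cells and less RNA per cell cannot be told apart. Against capillary EC, 23 of the 33 genes were higher and 3 lower in arterial EC, where 27.2% of all genes tested were higher and 29.0% lower. In venous EC 26 were higher and 3 lower, against 27.8% and 29.7% of all genes. In SMC 23 were higher and 6 lower, against 37.0% and 39.7% of all genes, and in microglia 28 were higher and 4 lower, against 43.4% and 43.3%. Pericytes showed the opposite direction, with 1 gene higher and 27 lower, against 19.5% and 31.6% of all genes. The median log2 fold change of the 33 genes was 0.24 in arterial EC, 0.36 in venous EC, 1.10 in SMC, 0.93 in microglia and -2.01 in pericytes. The median over all genes was -0.04 in SMC, nearer to 0 in arterial EC, venous EC and microglia, and -0.16 in pericytes. All 5 contrasts share the capillary EC of the same mice.

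**Figure D2:**
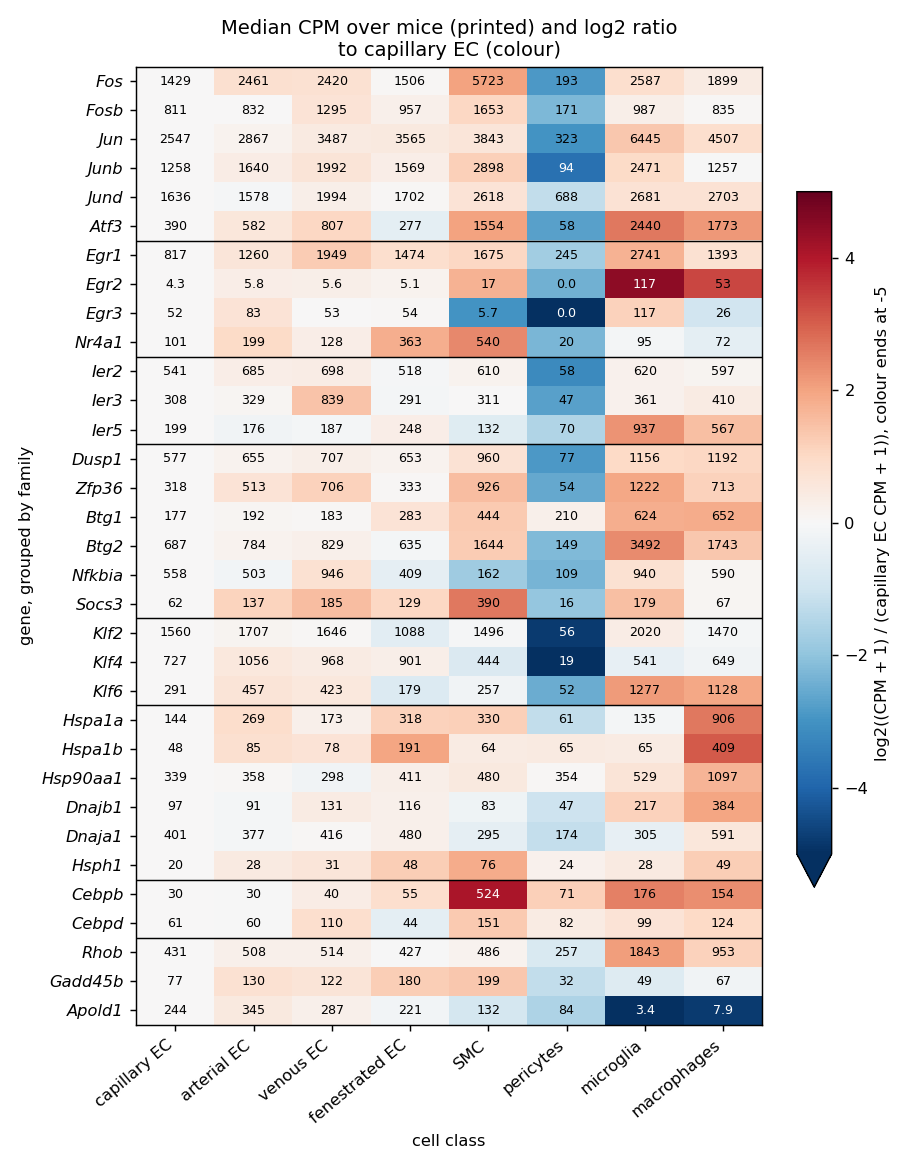
Median CPM over mice of the 33 genes (rows, grouped by family) in 8 cell classes (columns), printed in each cell, with the log2 ratio to capillary EC after adding 1 CPM as colour. The pericyte column is blue for most genes, Apold1 is blue in microglia and macrophages, and the darkest red cells are Egr2 in microglia and Cebpb in SMC.

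The AP-1 factors, which pair as dimers on promoters of growth and stress genes, were higher in SMC and microglia than in capillary EC. Fos (chr12:85473890-85477273) ranged from 889 to 2338 CPM in capillary EC over the 11 mice (median 1429), from 4521 to 9122 in SMC (median 5723) and from 1791 to 4331 in microglia (median 2587). The SMC values did not overlap with those of capillary EC, and Fos was 2.22 ± 0.08 (log2 fold change ± SE) higher in SMC (adjusted p = 8.39e-19) and 0.93 ± 0.10 higher in microglia. Jun (chr4:95049034-95052222) was instead highest in microglia, with 4698 to 8518 CPM (median 6445), against 3530 to 6426 in SMC (median 3843) and 1894 to 3743 in capillary EC (median 2547). All 6 AP-1 and ATF genes passed the test as higher in SMC and in microglia, and all 6 as lower in pericytes. Atf3, which is induced by many kinds of cell stress, had a median of 2440 CPM in microglia, 1554 in SMC, 390 in capillary EC and 58.5 in pericytes. Its log2 difference from capillary EC was 2.57 ± 0.10 in microglia. In venous EC the 6 genes were all higher than in capillary EC, with Junb at 0.69 ± 0.04 and Fos at 0.60 ± 0.06. In arterial EC 4 were higher, while Fosb (0.05 ± 0.04) and Jund (0.00 ± 0.03) did not pass.

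The EGR factors and Nr4a1, which are direct targets of growth factor and calcium signals, split by class. Egr1 ranged from 1831 to 4429 CPM in microglia (median 2741), from 1192 to 2432 in venous EC (median 1949) and from 621 to 1507 in capillary EC (median 817), and was higher in venous than in capillary EC of all 11 mice (1.04 ± 0.07). Egr2, a myeloid and Schwann cell factor, was low in EC, with a median of 4.35 CPM in capillary EC, and reached 67.9 to 148 CPM in microglia (4.49 ± 0.17, adjusted p = 1.85e-16). Egr3 went the other way in SMC, with 0.908 to 14.4 CPM against 43.0 to 90.9 CPM in capillary EC, a log2 difference of -2.68 ± 0.16. Nr4a1, an orphan nuclear receptor, was highest in SMC. Its medians were 540 CPM in SMC, 199 in arterial EC, 101 in capillary EC, 94.7 in microglia and 20.1 in pericytes. It was higher in SMC by 2.61 ± 0.09 and in arterial EC by 1.04 ± 0.04, in 11 of 11 mice each, and did not pass in microglia (0.00 ± 0.08).

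The KLF factors Klf2 and Klf4, which endothelial cells raise under laminar shear stress, were lowest in pericytes. Klf2 (chr8:72319033-72321656) ranged from 928 to 2148 CPM in capillary EC (median 1560), from 1092 to 2168 in arterial EC (median 1707) and from 1404 to 3252 in microglia (median 2019.7), and these ranges overlapped. In pericytes it ranged from 22.9 to 245 CPM (median 55.9), below every other class shown, and was lower than in capillary EC of the same mouse in 10 of 10 mice (-4.66 ± 0.15). Klf4 was lower by nearly as much there (-4.63 ± 0.17) and lower in SMC (-0.49 ± 0.08) and microglia (-0.39 ± 0.09), and was higher in arterial EC (0.47 ± 0.03). Klf6, a widely expressed relative, was 2.14 ± 0.09 higher in microglia and did not pass in SMC (0.05 ± 0.08).

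Genes that feed back on the response were led by different classes. Zfp36 (chr7:28376784-28380253), which targets AU-rich mRNAs for decay, had medians of 1222 CPM in microglia, 926 in SMC, 706 in venous EC and 318 in capillary EC. Btg2, an antiproliferative gene, had a median of 3492 CPM in microglia against 687 in capillary EC (2.37 ± 0.08). Socs3, an inhibitor of cytokine receptor signalling, was the member with the largest rise in both arterial EC (1.11 ± 0.05) and venous EC (1.48 ± 0.08), and it was 2.92 ± 0.09 higher in SMC. Nfkbia, the NF-kB inhibitor, was higher in microglia (0.89 ± 0.08) and venous EC (0.63 ± 0.05), lower in SMC (-1.37 ± 0.10) and did not pass in arterial EC (-0.01 ± 0.04). Of the immediate-early response genes, Ier3 was 1.32 ± 0.06 higher in venous EC, with 556 to 1288 CPM against 218 to 502 in capillary EC, and Ier5 was 2.30 ± 0.08 higher in microglia. Ier5 fell slightly in arterial (-0.19 ± 0.03) and venous EC (-0.15 ± 0.03).

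Cebpb had its highest level in SMC, and Apold1 was low in both microglia and macrophages. Cebpb (chr2:167688915-167690418), a factor of acute-phase and inflammatory transcription, ranged from 360 to 958 CPM in SMC, from 105 to 243 CPM in microglia and from 19.0 to 39.5 CPM in capillary EC. The 3 ranges did not overlap, and the SMC difference of 4.48 ± 0.10 was the largest rise of any member in that contrast (adjusted p = 3.37e-23). Cebpb was also the 1 member that was higher in pericytes (1.13 ± 0.19, 9 of 10 mice). Apold1 (chr6:134981718-134986836), an endothelial early response gene, ranged from 179 to 533 CPM in capillary EC and from 2.00 to 5.86 CPM in microglia, a difference of -6.43 ± 0.16. After each cell was thinned to 2000 UMIs, Apold1 had a UMI in 29.6% of capillary EC and 0.6% of microglia. In macrophages Apold1 ranged from 0 to 19.5 CPM over 6 mice, on 6 UMIs in all. Apold1 was lower in SMC as well (-0.70 ± 0.10). Rhob, a small GTPase, was 2.16 ± 0.09 higher in microglia, and Gadd45b, a stress and DNA damage gene, was 1.61 ± 0.10 higher in SMC and lower in microglia (-0.52 ± 0.09).

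Hspa1a, the inducible HSP70, was higher in arterial EC and SMC than in capillary EC, and it passed as slightly higher in microglia. It ranged from 74.1 to 527 CPM in capillary EC (median 144), from 154 to 690 in arterial EC (median 269), from 214 to 700 in SMC (median 330) and from 92.9 to 803 in microglia (median 135). These ranges overlapped widely between mice, yet Hspa1a was higher in arterial than in capillary EC of all 11 mice (0.78 ± 0.05, adjusted p = 2.64e-13). It was 1.27 ± 0.10 higher in SMC and 0.30 ± 0.08 higher in microglia by the test. In microglia its median CPM (135) was nevertheless below that of capillary EC (144), and not every mouse was higher there. Hsp90aa1, the inducible HSP90, was higher in SMC (0.64 ± 0.05) and microglia (0.80 ± 0.07), while the co-chaperone Dnaja1 was lower in both (-0.21 ± 0.05 and -0.26 ± 0.08). In pericytes 4 of the 6 heat shock genes were lower, with log2 differences from -1.42 to -0.31, and the median over the 6 was -0.40, against a median of -2.75 over the 6 AP-1 and ATF genes and -4.63 over the 3 KLF genes. Hspa1b (-0.11 ± 0.17) and Hsph1 (0.47 ± 0.23) did not pass there.

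Genes of the same pathways that are not members were counted from fixed lists. Of 30 further immediate-early genes, such as Fosl1, Nr4a2, Nr4a3 and Myc, 24 of 28 tested were lower in pericytes and 1 higher, with a median of -2.59, against 31.6% of all genes lower and 19.5% higher. In SMC 17 of 30 were higher and 10 lower, against 37.0% and 39.7% of all genes, and in microglia 18 of 29 were higher and 11 lower, against 43.4% and 43.3%. All 10 NF-kB feedback genes were higher in venous EC (median 1.09) and in microglia (median 2.39) than in capillary EC, while 3 were higher and 4 lower in SMC, shares near those of all genes there. Of all genes, 27.8% were higher in venous EC. Of 18 further heat shock genes 12 were higher and 6 lower in SMC, and 8 were higher and 8 lower in microglia, where the shares were again near those of all genes. Cryab, a small heat shock protein of contractile cells, was 8.23 higher on the log2 scale in SMC and 5.11 higher in pericytes. The 10 upstream factors, among them Srf and Creb1, had medians between -0.28 and 0.04 in the contrasts of arterial EC, venous EC, SMC and microglia and of -0.75 in pericytes. Of 11 cytokine genes known for activation during isolation, 10 were higher in microglia than in capillary EC, with a median of 6.52.

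Macrophages and microglia differed in which members they held. In the 6 mice with at least 20 macrophages, 8 members were higher and 14 lower in macrophages than in microglia, where 10.4% of all 12009 genes tested were higher and 17.5% lower and the median over all genes was -0.19. All 6 heat shock genes were among those higher. Hspa1a was at 869, 942, 984, 1063, 703 and 617 CPM in the macrophages of R182C-TgN3 9m-2, WT-TgN3 9m-1, WT-TgN3 9m-2, R182C-TgN3 9m-3, WT-TgN3 6m-2 and WT-TgN3 6m-3. In microglia of the same mice the highest value was 395 CPM, so the groups did not overlap (1.84 ± 0.15, adjusted p = 4.79e-33). Hspa1b was 2.34 ± 0.17 higher and Dnaja1 0.89 ± 0.15 higher, each in 6 of 6 mice. Hsph1 (1.06 ± 0.30) was higher in 5 of 6 mice and no longer passed when cells needed at least 1000 genes (adjusted p = 0.673, edgeR), without R182C-TgN3 9m-3 (adjusted p = 0.105) or without the mouse as a block (adjusted p = 0.168). Of the transcription factors, Egr3 (-1.86 ± 0.28) and Junb (-1.03 ± 0.14) were lower in macrophages, as were Socs3 (-1.28 ± 0.22), Rhob (-1.10 ± 0.14) and Zfp36 (-1.08 ± 0.15). The 6 mice gave between 20 and 36 macrophages each.

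Within a class the genes were spread unevenly over cells. Each cell was thinned to 2000 UMIs, and cells with fewer were left out, so that shares could be compared at 1 depth. In capillary EC a mean of 23.9% ± 7.2 of cells (SD, n = 11 mice) had under 0.5% of their UMIs from the 33 genes, and 31.1% ± 6.5 had 2% or more. In pericytes 78.9% ± 13.6 of cells lay under 0.5% (n = 9 mice with at least 20 thinned cells) and 5.17% ± 6.99 at 2% or more. In microglia only 0.557% ± 0.539 lay under 0.5% and 91.2% ± 8.1 at 2% or more, and in SMC these were 5.76% ± 3.90 and 76.3% ± 9.4. The ranges over mice of the upper class did not overlap between pericytes (0 to 19.2%) and SMC (60.4 to 92.4%), or between capillary EC (19.3 to 41.6%) and microglia (76.5 to 98.8%). The median cell had a UMI of 18.4 of the 33 genes in microglia, 17.2 in SMC, 11 in capillary EC and 4.50 in pericytes (means over mice).

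**Figure D3:**
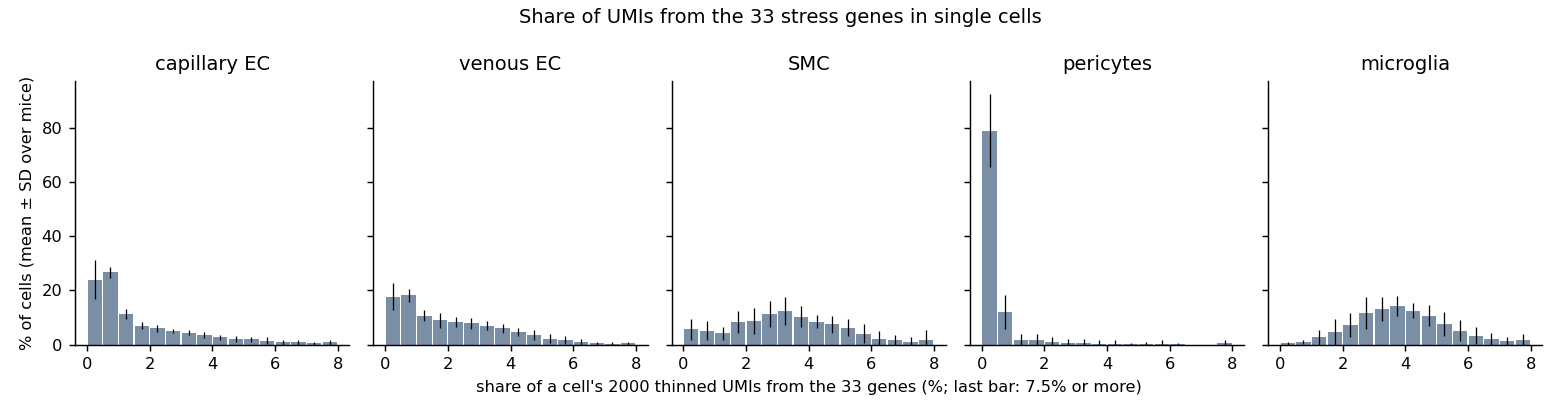
Distribution over single cells of the share of 2000 thinned UMIs that came from the 33 genes (x axis, percent, bins of 0.5) in 5 classes, as the mean percentage of cells over mice (bars) with the SD over mice (lines). Most pericytes fall in the first bin, capillary and venous EC are skewed with a long tail, and SMC and microglia peak between 2 and 5%.

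Cells were then ranked by this share inside each mouse and class, and the top 25% of cells was set against the bottom 25%. The ranking fixes the members, so only other genes are described, without a test. In capillary EC the further immediate-early genes summed to a median of 4542 CPM over mice in the top 25% and 1397 CPM in the bottom 25%, the further heat shock genes to 5061 and 3128 CPM, and the NF-kB feedback genes to 707 and 324 CPM, each higher in 11 of 11 mice. The upstream factors summed to 1230 and 1180 CPM and were higher in 7 of 11 mice. The cytokine genes known for activation during isolation summed to 102 and 72.4 CPM and were also higher in 11 of 11 mice. The top 25% had more UMIs per cell (4574 against 3771) and fewer mitochondrial UMIs (3.06% against 3.51%) in all 11 mice. It also had lower pan-endothelial markers (22533 against 26784 CPM) and lower microglia markers (425 against 602 CPM) in all 11 mice. In venous EC the depth differed more, with median UMIs of 11826 against 5705, and the NF-kB feedback genes stood at 1424 against 358 CPM. In microglia the further immediate-early genes were at 5367 against 4028 CPM and the mitochondrial share at 1.55% against 2.00%. The part of depth in these differences was not tested.

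Between batch 20210616 and batch 20210225 most fold changes of the members were below 0, and the members that passed the test were all lower in batch 20210616. These batches held 4 mice each with the same numbers of genotypes and sexes, but all mice of the first were 6 months old and all of the second 9 months, so batch and age cannot be told apart. The contrast came from a single fit over all 11 mice and 4 batches. In capillary EC all 33 fold changes were below 0 (median -0.62, all genes 0.01) and 29 had an unadjusted p under 0.05, against 13.7% of all genes, while 7 passed the adjusted threshold, all lower, against 0.499% of all genes lower. In arterial EC all 33 were below 0 as well (median -0.58) and 2 passed, against 0.459% of all genes lower. In microglia 30 of 33 were below 0 (median -0.55) and 7 passed, all lower, against 1.39% of all genes lower. In SMC 30 were below 0 (median -0.45) and 0 passed with edgeR, against 0.0955% of all genes lower. There 20 members had an unadjusted p under 0.05, against 8.23% of all genes, and DESeq2 called 2 members, against 0.134% of all genes lower.

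Hspa1a and Apold1 passed in both capillary and arterial EC, and Hspa1a had the largest fold change in capillary EC and in microglia. Hspa1a in capillary EC was at 527, 154, 311 and 347 CPM in R182C-TgN3 9m-1, R182C-TgN3 9m-2, WT-TgN3 9m-1 and WT-TgN3 9m-2 of batch 20210225. It was at 118, 74.1, 77.6 and 142 CPM in R182C-TgN3 6m-1, R182C-TgN3 6m-2, WT-TgN3 6m-1 and WT-TgN3 6m-2 of batch 20210616. The groups did not overlap, with R182C-TgN3 9m-2 close to the lower group (-1.64 ± 0.33, adjusted p = 0.0298). In the microglia of the same mice, in the same order, Hspa1a was at 803, 130, 328 and 375 CPM and at 113, 97.9, 92.9 and 146 CPM (-1.89 ± 0.37, adjusted p = 0.0124). Here R182C-TgN3 9m-2 fell inside the range of batch 20210616. Hspa1a passed in arterial EC too (-1.22 ± 0.26, adjusted p = 0.0449), with 278 to 690 against 154 to 255 CPM. Apold1 was at 533, 464, 299 and 474 CPM in capillary EC of batch 20210225 and at 224, 179, 231 and 234 CPM in batch 20210616, with no overlap (-0.98 ± 0.17, adjusted p = 0.0166), and it passed in arterial EC (-1.01 ± 0.18, adjusted p = 0.0194). In the remaining batches Apold1 in capillary EC was at 297 CPM in the 9-month R182C-TgN3 mouse of batch 20210420 and at 244 and 211 CPM in batch 20210618.

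Egr1 and Zfp36 fell in capillary EC in the same way. Egr1 was at 1385, 1377, 912 and 1507 CPM in batch 20210225 and at 659, 621, 805 and 639 CPM in batch 20210616 (-0.89 ± 0.17, adjusted p = 0.0239). Zfp36 was at 536, 523, 399 and 551 CPM against 271, 186, 313 and 243 CPM (-0.95 ± 0.19, adjusted p = 0.0315). In each case WT-TgN3 9m-1 was the lowest mouse of its batch and still lay above the other batch. Egr2 (-1.37 ± 0.30), Socs3 (-0.85 ± 0.19) and the HSP40 co-chaperone Dnajb1 (-0.61 ± 0.13) also passed, and the groups of Socs3 overlapped. Fos and Jun did not pass: Fos was at 2200, 2189, 1429 and 2338 CPM against 1332, 889, 1436 and 999.6 CPM, and Jun at 3343, 3743, 2216 and 3592 CPM against 2524, 1894, 2547 and 2029 CPM. In both genes WT-TgN3 9m-1 lay inside the range of batch 20210616.

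In microglia the members that passed were Hspa1a, Hsp90aa1, Zfp36, Klf2, Dusp1, Cebpb and Ier5. Klf2 was at 2765, 3105, 2019.7 and 3252 CPM in batch 20210225 and at 1911, 1404, 1717 and 1567 CPM in batch 20210616 (-0.80 ± 0.18, adjusted p = 0.0276). Dusp1 was at 1467, 1293, 1156 and 1607 CPM against 965, 777, 865 and 929 CPM (-0.69 ± 0.16). Neither gene's groups overlapped, nor did those of Zfp36 (-0.84 ± 0.20), Cebpb (-0.67 ± 0.13) and Ier5 (-0.67 ± 0.17), while those of Hsp90aa1 (-0.90 ± 0.21) did. Of the further immediate-early genes, 3 of 29 tested fell in capillary EC (Dusp6, Trib1 and Fosl1), 5 of 29 in arterial EC (these 3, Tob1 and Maff), 2 of 25 in SMC (Tob1 and Ier5l) and 4 of 28 in microglia (Tob1, Dusp2, Dusp5 and Zfp36l2). Of the further heat shock genes, 1 of 18 fell in capillary EC (Hspa8), 1 of 18 in arterial EC (Bag3), 0 of 18 in SMC and 3 of 17 in microglia (Hspe1, Cacybp and Chordc1). The shares of all genes lower are those given above for each class. By edgeR none of the NF-kB feedback genes, upstream factors or activation cytokines passed in these 4 classes.

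**Figure D4:**
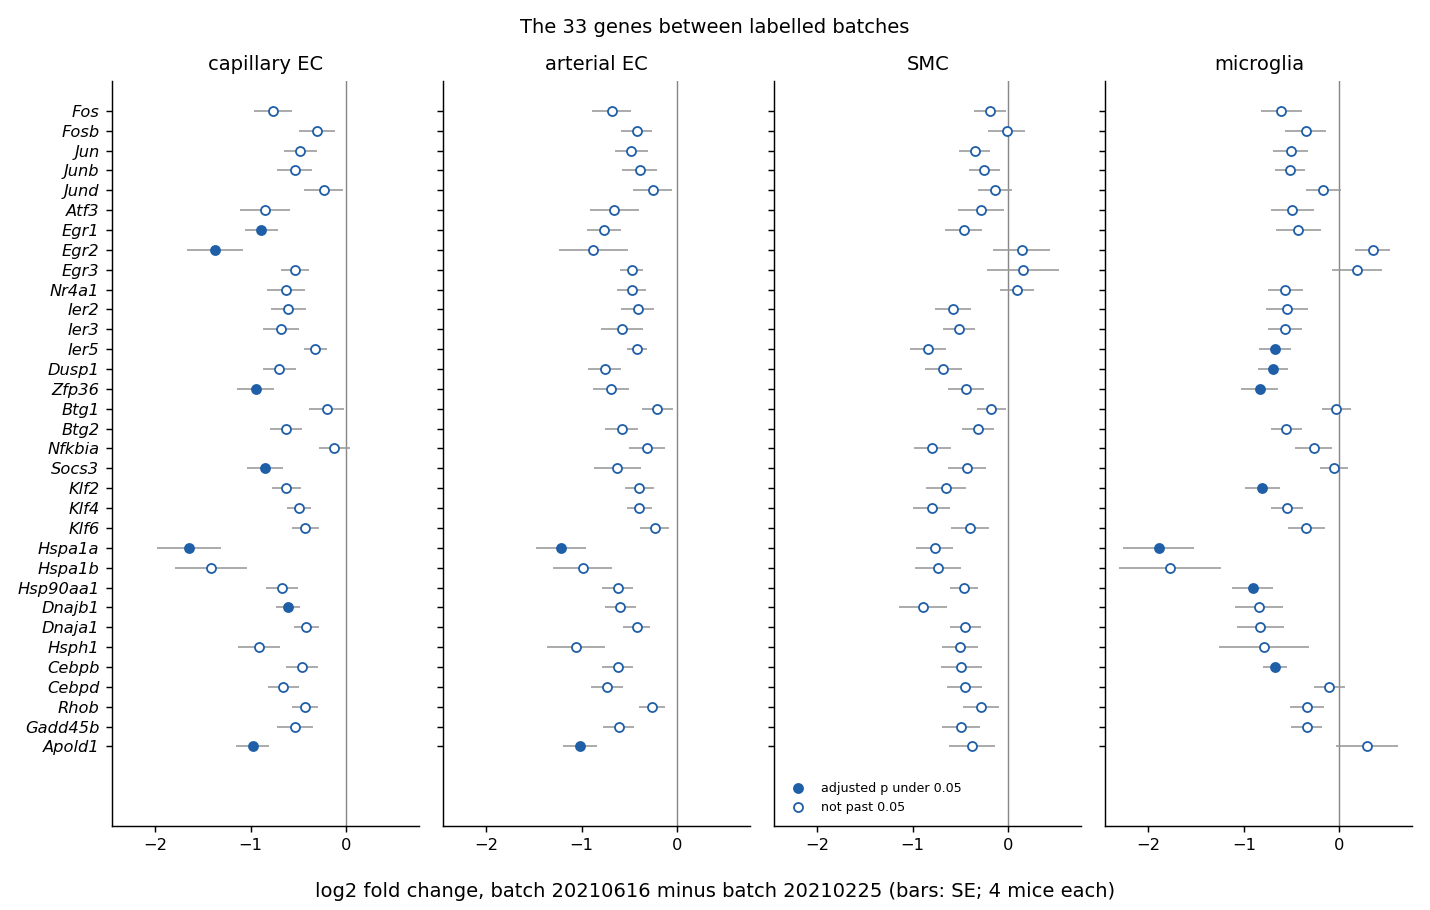
Log2 fold change of the 33 genes (rows) between batch 20210616 and batch 20210225 in 4 cell classes (4 mice each, bars are standard errors), with filled points past an adjusted p of 0.05. All points lie left of 0 in capillary and arterial EC, and Hspa1a lies farthest left in capillary EC and in microglia.

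The number that passed rested on single mice. The counts that follow have no share of all genes beside them and show only how the calls move. Without R182C-TgN3 6m-1, R182C-TgN3 6m-2 or WT-TgN3 9m-2 none of the 33 genes passed in capillary EC, and 1 passed without R182C-TgN3 9m-1 and 3 without WT-TgN3 6m-1. Without WT-TgN3 6m-2 or WT-TgN3 9m-1 12 passed, and 19 without R182C-TgN3 6m-3 or WT-TgN3 6m-3. The last 2 mice are of batch 20210618, so they enter through the common fit and not through the batches compared. In microglia 0 passed without R182C-TgN3 6m-2, 1 without R182C-TgN3 6m-1, WT-TgN3 6m-1 or WT-TgN3 6m-2, 2 without R182C-TgN3 9m-1 or WT-TgN3 9m-2, and 21 without WT-TgN3 9m-1. In arterial EC the counts ran from 0, without R182C-TgN3 9m-1, R182C-TgN3 6m-1, WT-TgN3 6m-1 or WT-TgN3 9m-2, to 8 without WT-TgN3 6m-3. In SMC they ran from 0 to 7, the latter without WT-TgN3 9m-1. The direction was steadier: in 21 alternative fits per class, between 32 and 33 genes were below 0 in capillary EC, 33 in arterial EC, 27 to 31 in microglia and 26 to 33 in SMC, and no gene was called higher.

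Batches of the same age were compared as well. Between batch 20210618 (1 mouse of each genotype) and batch 20210616, both of 6 months, edgeR called 0 of the 33 genes in each of the 4 classes and 0.0% of all genes, and an unadjusted p under 0.05 was reached by 1 member in capillary EC, 1 in arterial EC, 4 in SMC and 10 in microglia. Of all genes, 2.52%, 4.02%, 5.63% and 6.63% reached it in these classes. DESeq2 called 0 as well. Of the 33 fold changes (batch 20210618 minus batch 20210616), 8 were below 0 in capillary EC, 7 in arterial EC, 15 in SMC and 7 in microglia. Their medians were 0.18, 0.17, 0.04 and 0.31, against 0.010, 0.006, -0.004 and -0.006 over all genes. In microglia the share of UMIs from the 33 genes was 4.16% and 4.21% in the 2 mice of batch 20210618 and 2.81 to 3.64% in the 4 of batch 20210616, without overlap, and in capillary EC it was 1.48% and 1.88% against 1.21 to 1.63%. The single mouse of batch 20210420, at 9 months, had 3.39% in microglia and 1.74% in capillary EC. In both classes it lay below 3 of the 4 mice of batch 20210225 and next to WT-TgN3 9m-1 (3.37% and 1.72%).

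Levels of the same gene in capillary EC and in microglia were compared over the 11 mice, which share library, depth and isolation. Both Pearson's r and Spearman's rho of log2 CPM were taken, with 2-sided permutation tests adjusted over all 10816 genes tested. Of the 33 genes, 7 passed by Pearson's r, against 3.14% of all genes. They were Hspa1a (r = 0.953, adjusted p = 0.00721, rho = 0.855), Hsp90aa1 (r = 0.937, adjusted p = 0.0105, rho = 0.891), Btg2 (r = 0.932, rho = 0.882), Dnaja1 (r = 0.917, rho = 0.673), Hspa1b (r = 0.878, rho = 0.782), Jun (r = 0.872, rho = 0.782) and Zfp36 (r = 0.848, rho = 0.882). By Spearman's rho 2 passed, Hsp90aa1 and Zfp36, and the share of all genes that passed by rho is not given here. The coefficient was positive for 30 of the 33 genes, with a median of 0.736 against 0.333 over all genes. The exceptions were Egr2 (r = -0.299), Apold1 (r = -0.290) and Egr3 (r = -0.0512). The microglial values of Apold1, 2.00 to 5.86 CPM, rest on 241 UMIs in all. Unadjusted p-values of rho for the 7 genes ran from 4e-04 to 0.0276 in the permutation test.

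With values centred within batches the median r of the 33 genes was 0.710 against 0.327 over all genes. There r was 0.890 for Hspa1a, 0.969 for Hsp90aa1, 0.874 for Jun and 0.819 for Egr1, and 0.389 for Ier5 and 0.169 for Cebpb. Mice can be exchanged within batches in only 1152 ways, which limits how small a p can be, and 0 of the 33 genes passed the adjustment over all genes. In all, 19 of the 33 genes had an unadjusted p under 0.05 by this exact permutation test against 10.7% of all genes. For each gene the 2 mice farthest from its median in capillary EC were also left out, so the 9 remaining mice differ between genes. Then r was 0.906 for Hspa1a, 0.858 for Hsp90aa1, 0.847 for Btg2, 0.842 for Hspa1b, 0.798 for Dnaja1, 0.763 for Jun and 0.734 for Zfp36. Of the 33 genes 0 passed, and their median r was 0.605 against 0.248 over all genes.

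**Figure D5:**
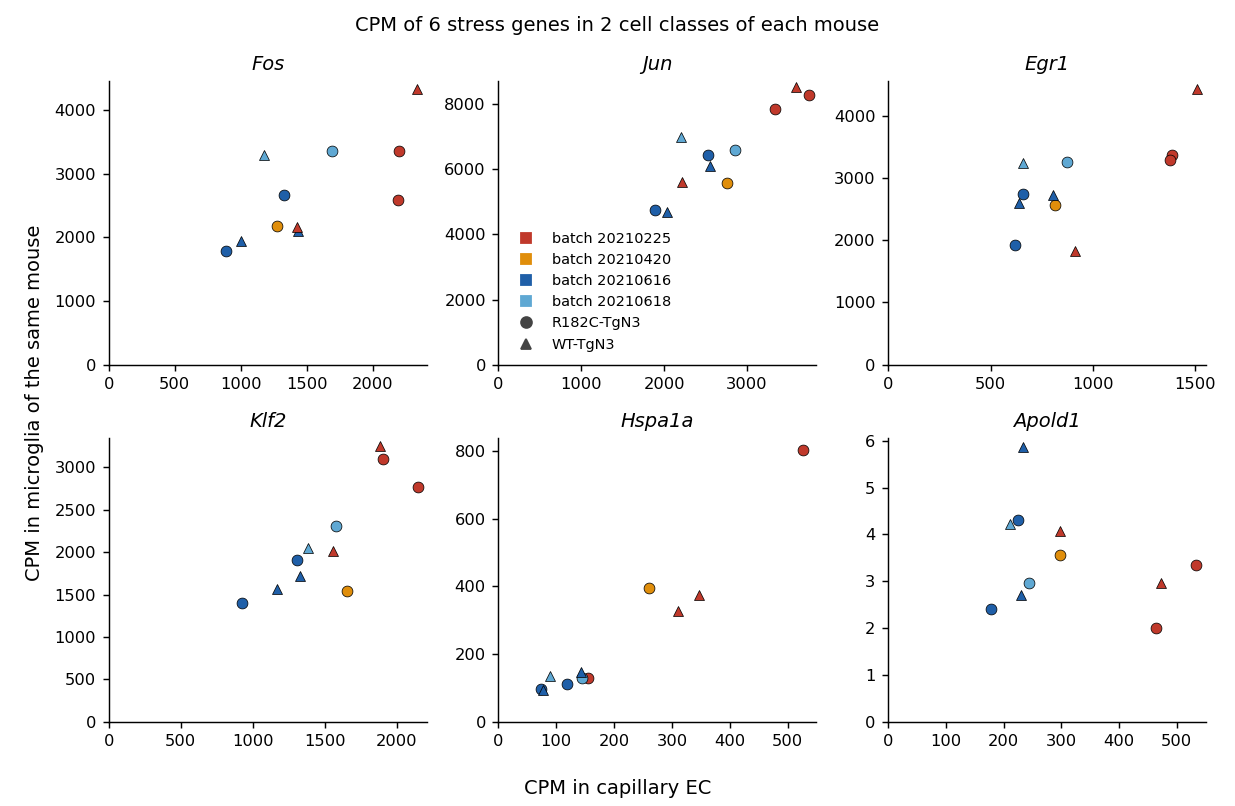
CPM of 6 genes in capillary EC (x axis) and in microglia of the same mouse (y axis), 1 point per mouse, coloured by labelled batch and shaped by genotype. Mice high for Hspa1a, Jun or Klf2 in capillary EC were mostly high in microglia too, R182C-TgN3 9m-1 is highest for Hspa1a in both, and Apold1 shows no such order at its low level in microglia.

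With genotype as the only term, no member passed the adjusted threshold between R182C-TgN3 and WT-TgN3 mice, while other fits called members in pericytes and macrophages, as given further on. By edgeR 0 of 33 genes passed in capillary, arterial and venous EC and in microglia, where 0.0% of all genes passed, 0 of 33 in SMC (0.011% of all genes), 0 of the 19 tested in pericytes (0.0413%) and 0 of the 29 tested in macrophages (0.0%). An unadjusted p under 0.05 was reached by 0, 0, 1 and 0 genes in capillary EC, arterial EC, venous EC and microglia, by 1 in SMC, 2 in pericytes and 4 in macrophages. Of all genes, 2.09%, 1.47%, 1.41% and 1.02% reached it in the first 4 classes, 2.41% in SMC, 5.29% in pericytes and 2.91% in macrophages. DESeq2 called 0 in every class. The median log2 fold change of the members was 0.16 in capillary EC, 0.07 in arterial EC, 0.13 in venous EC, -0.09 in SMC and 0.01 in microglia, and with batch as a covariate it was 0.11, 0.08, 0.10, -0.09 and 0.05. The standard error of a member had a median of 0.19 in capillary EC.

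The levels show the overlap. Fos in capillary EC ranged from 889 to 2200 CPM in the 6 R182C-TgN3 mice (median 1513) and was at 1436, 999.6, 1176, 1429 and 2338 CPM in WT-TgN3 6m-1, 6m-2, 6m-3, 9m-1 and 9m-2 (0.16 ± 0.23). Jun in SMC ranged from 3530 to 5368 CPM (median 3774) and was at 3972, 3577, 4519, 3702 and 6426 CPM in the WT-TgN3 mice in the same order (-0.12 ± 0.15). Klf2 in microglia ranged from 1404 to 3105 CPM (median 2108) against 1717, 1567, 2045, 2019.7 and 3252 CPM (0.06 ± 0.24). For these 3 genes WT-TgN3 9m-2 lay above every R182C-TgN3 mouse and the other WT-TgN3 mice lay inside the R182C-TgN3 range. Hspa1a ranged from 97.9 to 803 CPM in R182C-TgN3 microglia (median 130) against 92.9, 146, 135, 328 and 375 CPM in the WT-TgN3 mice in the same order (0.40 ± 0.52). Egr1 in capillary EC differed by 0.13 ± 0.24 and Apold1 by 0.21 ± 0.27. A model with an interaction of genotype and age in 6 classes called 0 of the 195 member tests, and it called 0 of all genes. In pericytes WT-TgN3 9m-1 was the only 9-month WT-TgN3 mouse in that model.

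Pericytes and macrophages, the classes with the fewest cells, had median fold changes of the tested members of -0.33 and 0.35. In pericytes 17 of 19 fold changes were below 0, while the median over all genes was 0.00. Junb was at 0 to 429 CPM in 6 R182C-TgN3 mice (median 79.5) and 84.7 to 939 CPM in 4 WT-TgN3 mice (median 279), a difference of -1.52 ± 0.52 (adjusted p = 0.782). Fos in pericytes was at 979, 412, 122, 109, 44.5 and 38.2 CPM in R182C-TgN3 9m-1, 9m-2, 9m-3, 6m-1, 6m-2 and 6m-3 and at 1952, 448, 138 and 249 CPM in WT-TgN3 9m-1, 6m-1, 6m-2 and 6m-3. These values overlapped. With batch as a covariate 3 of 30 members tested in pericytes passed as lower in R182C-TgN3 mice, against 0.185% of all genes. They were Fos (-1.76 ± 0.29, adjusted p = 6.58e-04), Junb (-2.02 ± 0.35, adjusted p = 0.00152) and Dusp1 (-1.42 ± 0.29, adjusted p = 0.0100), and without a filter on low counts Fos, Junb and Socs3 passed. Without R182C-TgN3 9m-1 Junb passed (adjusted p = 0.0299). For fits without the filter or without 1 mouse, the share of all genes called is not given here. In macrophages Klf4 was at 2296 and 789 CPM in the 2 R182C-TgN3 mice and at 395, 506, 623 and 675 CPM in the 4 WT-TgN3 mice (1.499 ± 0.36, adjusted p = 0.598), and it passed without a filter on low counts (adjusted p = 0.00392). It also passed without R182C-TgN3 9m-3 (adjusted p = 0.0199), a fit with 1 R182C-TgN3 mouse left, which is assumed to vary like the 4 WT-TgN3 mice.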

How the data were processed

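Brain vessel cells from 11 mice (6 R182C-TgN3, 5 WT-TgN3) had been sequenced with 3′ droplet libraries. Per the labels, the authors made UMI counts with Cell Ranger 7.0.0 on mm10, and they deposited the raw count of each gene per called barcode without normalization. The deposited counts were whole numbers. Cells needed 500 detected genes or more and a mitochondrial share no higher than 10%, and 3279 doublets were removed by scores against simulated doublets, up to 0.8% per 1000 barcodes. A cell was called endothelial with at least 6 of 10 markers, SMC, pericyte or microglia with at least 5, and macrophage with at least 2 of 7 and at most 7 microglia markers, thresholds set after the marker counts were seen, and cells of several classes were left out. EC subtypes needed at least 3 capillary markers, at least 4 arterial or venous ones, leading by 2, or 3 fenestrated ones. UMIs were summed per mouse and class for mice with at least 20 cells, filtered with filterByExpr, scaled by TMM and tested with edgeR 4.0.16 in R 4.3.3, adjusted over all genes. Genotypes were compared over all mice, batches with genotype as a covariate, and cell classes with mouse as a block. Correlations used 100000 permutations and a prior count of 2, over genes with at least 10 UMIs in 5 mice, and were adjusted over all genes in place of the members alone, as first planned. Python 3.11.15, numpy 2.4.6, scipy 1.17.1 and scikit-learn 1.9.0 were used, and DESeq2 1.42.0 as an alternative. On simulated data with known changes the edgeR step recovered 82% of 2-fold changes for genotype in capillary EC and 72% in microglia, and called at most 0.102% of unchanged genes. Many genes were changed at once there, and counts were drawn independently for each gene. These rates therefore do not measure how often a lone changed member would pass in the real data.

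The members, lists and tests were chosen with earlier results of these data known. Values are given for Fos, Jun, Egr1, Klf2, Hspa1a and Apold1, for up to 6 members past the threshold in each genotype or batch comparison, and for the 4 largest rises and falls of each class contrast, with further members described by their role. Mice of different genotype with the same age and replicate number deviated together in microglia (5 pairs, r from 0.156 to 0.486 across genes), where all pairs exceeded 0.1. In EC, SMC and pericytes some pairs did so too, up to 0.358 for replicate 2 at 9 months in venous EC, and others lay below 0. The only macrophage pair was at 0.165. All these pairs also shared batch and age, and mice with different numbers were not compared. Pairing by replicate number therefore cannot be told apart from a shared batch. Positions of genes came from GENCODE vM21 (mm10) and promoters from RefSeq GRCm38.p6. P-values of the genotype and batch fits measure the spread between mice, and those of the class contrasts the spread of differences within mice. In edgeR they also draw on the spread of other genes, so a small p does not rest on a gene's own spread alone. Counting precision rises with depth. No mouse was left out as a whole. The paper reports that a control sample, which it does not name, was excluded from its microglia analysis.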

Additional observations from a re-analysis of the deposited data

Results flagged for a closer look

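In 15 of 91 groups of 4 to 6 mice, the highest mouse stood apart from the other mice of its genotype by Dixon's 95% criterion, which chance meets in about 1 of 20 groups. The groups share mice and genes and are not independent. All of these mice were 9 months old and of batch 20210225, and their part in the comparisons was measured by leaving each mouse out.

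WT-TgN3 9m-2 stood above the other WT-TgN3 mice in 8 groups. The 33 genes took 2.44% of its UMIs in capillary EC, against 1.46 to 1.72% in the other mice, and 5.07% in SMC, against 2.78 to 3.34%. In arterial EC it had 4114 CPM of Jun (others 2238 to 2685), 2396 CPM of Egr1 (others 907 to 1328) and 823 CPM of Apold1 (others 270.2 to 416). Its Klf2 level was 2805 CPM in SMC (others 1173 to 1616), 3252 CPM in microglia (others 1567 to 2045) and 2513 CPM in macrophages (others 957 to 1192).

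R182C-TgN3 9m-1 stood above the other R182C-TgN3 mice in 6 groups. In SMC the 33 genes took 4.31% of its UMIs (others 2.76 to 3.26%), with 5368 CPM of Jun (others 3530 to 3966). In pericytes they took 1.15% (others 0.228 to 0.526%), with 1588 CPM of Jun (others 89.0 to 453), 245 CPM of Klf2 (others 22.9 to 63.4) and 674 CPM of Hspa1a (others 15.3 to 181). WT-TgN3 9m-1 had 772 CPM of Hspa1a in pericytes, against 25.7 to 63.5 CPM in the other 3 WT-TgN3 mice.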

How the results depend on the processing

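Counts of members past the threshold between batches 20210616 and 20210225 moved with the method. In capillary EC 7 became 19 with DESeq2, 28 without a filter on low counts and 12 without genotype as a covariate, and in arterial EC 2 became 13, 25 and 4. In SMC 0 became 2 with DESeq2, 10 without the filter and 2 at up to 20% mitochondrial UMIs, and in microglia 7 became 11 with DESeq2 and 21 without the filter. Leaving out 1 mouse gave 0 to 19 in capillary EC, 0 to 8 in arterial EC, 0 to 7 in SMC and 0 to 21 in microglia. Between batches 20210618 and 20210616 the count became 1 in capillary EC (Socs3) and 2 in microglia (Socs3 and Hsph1) without the filter, and was 0 without any 1 mouse. By genotype the count became 3 in pericytes without the filter, 3 there with batch as a covariate and 1 in macrophages without the filter, and leaving out 1 mouse gave 0 to 1 in both classes and 0 in the others. For most of these settings the share of all genes called is not given here, so the counts show only how calls move with the method. In SMC the share of all genes lower in batch 20210616 was 0.0955% with edgeR and 0.134% with DESeq2. The cause was not tested.

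With the replicate number as a block, 17 members passed between batches 20210616 and 20210225 in capillary EC, 14 in arterial EC and 5 in SMC, and 2 by genotype in pericytes (Junb and Fos). The share of all genes called with this block is not given here. Same-numbered mice did not all deviate together in these classes, so the number is not shown to pair them. In microglia same-numbered mice of different genotype did deviate together, but they also shared batch and age, and the block changed no genotype call. In macrophages no blocked genotype fit was made, with 1 pair of mice. Without mouse as a block, 10 members differed between arterial and capillary EC and 15 between venous and capillary EC. The share of all genes called without mouse as a block is not given here either, so these counts show only how calls move.

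Leaving out 1 mouse gave 26 to 27 members in the arterial contrast, 29 to 30 in venous EC, 29 to 31 in SMC, 27 to 30 in pericytes, 29 to 32 in microglia and 19 to 20 in macrophages. For these fits the share of all genes called is not given here. For the correlation between capillary EC and microglia, 2 passed by Spearman's rho, 0 with values centred within batches and 0 without the 2 mice farthest from the median of each gene. Without 1 mouse 2 to 12 passed (2 without R182C-TgN3 9m-1). For these correlation settings the share of all genes that passed is not given here. Of the alternative values of single named genes, 74 of 294 lost their call between batches and 13 of 807 between cell classes, and 0 changed direction. Leaving out shared barcodes, chosen after the data were seen, kept every count of calls within 1.5 times. A stricter marker gate could not be run for macrophages. Pericytes and macrophages, with few cells per mouse, have the least depth.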
